A study of Mus musculus with 9 samples.

Results

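miR-129 is a microRNA encoded at 2 loci of the mouse genome, Mir129-1 and Mir129-2, whose hairpins each give a 5p and a 3p mature strand. It was followed here in B16F1 melanoma cells, as the 67 entries of the deposited count table that stood under hairpin mmu-mir-129-1 or mmu-mir-129-2 or carried a mature name starting with mmu-miR-129, out of 6414 entries in all. Of these, 62 were tags, each a read sequence listed under a hairpin, and 5 were mature names. In 4 of the mature names (miR-129-1-3p, miR-129-2-3p, miR-129b-5p and miR-129b-3p) every library was listed at 0, and miR-129-5p held 69 counts over all 9 libraries. An entry was placed on the 5p arm when its start in the hairpin was below 35 and on the 3p arm otherwise, and the entries were summed by arm. miR-129 was chosen because its levels in exposed and control cells were already known from these libraries, so those comparisons are given as a description, and a call named in them supports nothing.

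B16F1 is an established melanoma line from a C57BL/6 mouse (C57BL/6J in the culture protocol), and all cells shared this origin. The 3 control cultures were not exposed, 3 cultures received 5 mM of the amino acid L-Tyr, the substrate of melanin synthesis, and 3 received 2.5 µg/mL of the thymidine analog 5-Brd-2′-dU, each for 72 h. The series describes the 3 cultures of each group as independent replicates. A single line was used, and small RNA came from whole cultures, so that fewer cells making a miRNA and less of it per cell cannot be told apart.

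MicroRNAs are cut from a hairpin first by Drosha and then by Dicer, and 1 of the arms is loaded into Argonaute, where bases 2 to 8 (the seed) pair with target mRNAs. miR-129 is abundant in brain, and it is known for binding the mRNAs of the cell-cycle kinase Cdk6 and the transcription factor Sox4. The promoter of its second locus is often silenced by DNA methylation in human tumors.

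In the mm9 assembly, Mir129-1 lay at chr6:28972619-28972691 on the + strand and Mir129-2 at chr2:94081521-94081610 on the - strand. Neither hairpin overlapped another gene of the annotation used. The nearest were noncoding transcripts, Gm3294 at 454 bp from Mir129-1 and E530001K10Rik at 10426 bp from Mir129-2. The nearest coding gene to Mir129-1 was Lep, which encodes leptin, 37529 bp away, and the nearest to Mir129-2 was Ttc17, 59314 bp away. The hairpins of RefSeq, 73 and 90 bases long, were found without a mismatch at these positions. They are shown because they contain every place from which a tag could be assigned, with the most abundant tag of each arm in capitals.
mir-129-1 hairpin: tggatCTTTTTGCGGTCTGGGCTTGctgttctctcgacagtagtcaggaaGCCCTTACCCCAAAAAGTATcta
mir-129-2 hairpin: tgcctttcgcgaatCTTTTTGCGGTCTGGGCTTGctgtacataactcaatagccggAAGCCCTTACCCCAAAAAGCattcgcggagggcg

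The mature sequences of RefSeq are 21 bases long for miR-129-5p and 22 for miR-129-2-3p. No tag could hold either of them whole, because tags of these hairpins measured 15 to 20 nt and no tag of the table was longer. The seed is in capitals.
miR-129-5p: cUUUUUGCggucugggcuugc
miR-129-2-3p: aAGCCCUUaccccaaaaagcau

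The 62 tags held 46 different sequences, 19 of the 5p arm and 27 of the 3p arm. On the 5p arm, 13 sequences were listed under both hairpins and held 98.4% of the 5p tag counts, since the 5p strand is the same in both. The remaining 6 sequences of the 5p arm were listed under 1 hairpin but occurred in both, so no 5p count could be assigned to a locus. The 3p arm differs at base 20 of the mature sequence, and 94.9% of its tag counts lay in 24 sequences listed under 1 hairpin, of which 19 occurred exactly in that hairpin alone. The pairs of tags that separate the loci are shown here, with the differing base in capitals. Positions are counted from 1 at the first base of the tag, with the mir-129-2 base first and the mir-129-1 base last. The most abundant pair, starting at base 1 of the mature strand, differs by C20T. This is the last base of the tag, and whether it came from the locus or was changed at the read's end was not tested.
mir-129-2 tag from base 1: aagcccttaccccaaaaagC
mir-129-1 tag from base 1: aagcccttaccccaaaaagT
The pair that starts at base 3 differs by C18T, which is the same base of the mature strand.
mir-129-2 tag from base 3: gcccttaccccaaaaagCat
mir-129-1 tag from base 3: gcccttaccccaaaaagTat

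The entries of the table held between 144452 and 424122 counts per library. These are far fewer than the reads that the study reports, so most reads are absent from the table. CPM is the count scaled to library size, after TMM factors that correct for composition, and on this scale 3 counts, the upper limit allowed by a count of 0, were worth between 6.49 and 19.8 CPM. Replicate 3 of 5-Brd-2′-dU stood apart from the other 8 libraries in the fibroblast and smooth muscle list (all 5 markers had counts), whose summed level was 261282 CPM there and between 1681 and 7269 CPM elsewhere. Endothelial markers (2 of 2 with counts) summed to 7081 CPM there against 63.4 to 263 CPM elsewhere, erythroid markers (2 of 2) to 6781 CPM against 0 to 288 CPM, and leukocyte markers (3 of 4, with miR-142a-3p at 0) to 1466 CPM against 0 to 69.2 CPM. Of the muscle markers, miR-1a-3p alone had counts, with 230 CPM there and 0 in the other 8 libraries, and miR-133a-3p and miR-206-3p were at 0. The hepatic marker miR-122-5p reached at most 76.8 CPM, in replicate 2 of L-Tyr. The melanocyte markers (3 of 3 with counts: miR-211-5p, miR-211-3p and miR-204-5p) summed to 10863 to 17043 CPM in control cells, 22559 to 26438 CPM with L-Tyr and 6681 to 7674 CPM with 5-Brd-2′-dU, so that the lineage of the line was represented in every library.

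The 5p strand was the major one in these counts. They came almost wholly from tags of at most 20 nt, while the mature strands have 21 and 22 bases. How many full-length strands were present is not known, so levels, ranks and arm shares describe the short tags. In control cells, miR-129-5p stood at 4983, 5172 and 5810 CPM. With L-Tyr it stood at 11548, 12789 and 10494 CPM, and with 5-Brd-2′-dU at 19758, 12545 and 11276 CPM. Both exposed groups lay above all 3 control libraries, as did 10.6% of all arm sums tested with L-Tyr and 13.1% with 5-Brd-2′-dU, and replicate 1 of 5-Brd-2′-dU was the highest of the 9. The means were 5322 ± 433 CPM in control cells, 11610 ± 1149 CPM with L-Tyr and 14526 ± 4575 CPM with 5-Brd-2′-dU (SD, n = 3 each). These levels ranked miR-129-5p 38th of 464 arm sums with a count in control cells, 25th of 386 with L-Tyr and 18th of 476 with 5-Brd-2′-dU.

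In the same counts, the 3p strand was less abundant and more variable. miR-129-3p stood at 942, 1429 and 1813 CPM in control cells. With L-Tyr it stood at 7185, 2962 and 7125 CPM, with replicate 2 lower than the other two. With 5-Brd-2′-dU it stood at 3954, 3696 and 3579 CPM, the tightest group. All 6 exposed libraries lay above the control libraries, as did 10.6% of all arm sums tested with L-Tyr and 13.1% with 5-Brd-2′-dU. The means were 1394 ± 437, 5757 ± 2421 and 3743 ± 192 CPM (SD, n = 3 each) in the same order. It ranked 80th of the arm sums in control cells, 40th with L-Tyr and 54th with 5-Brd-2′-dU.

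**Figure D1:**
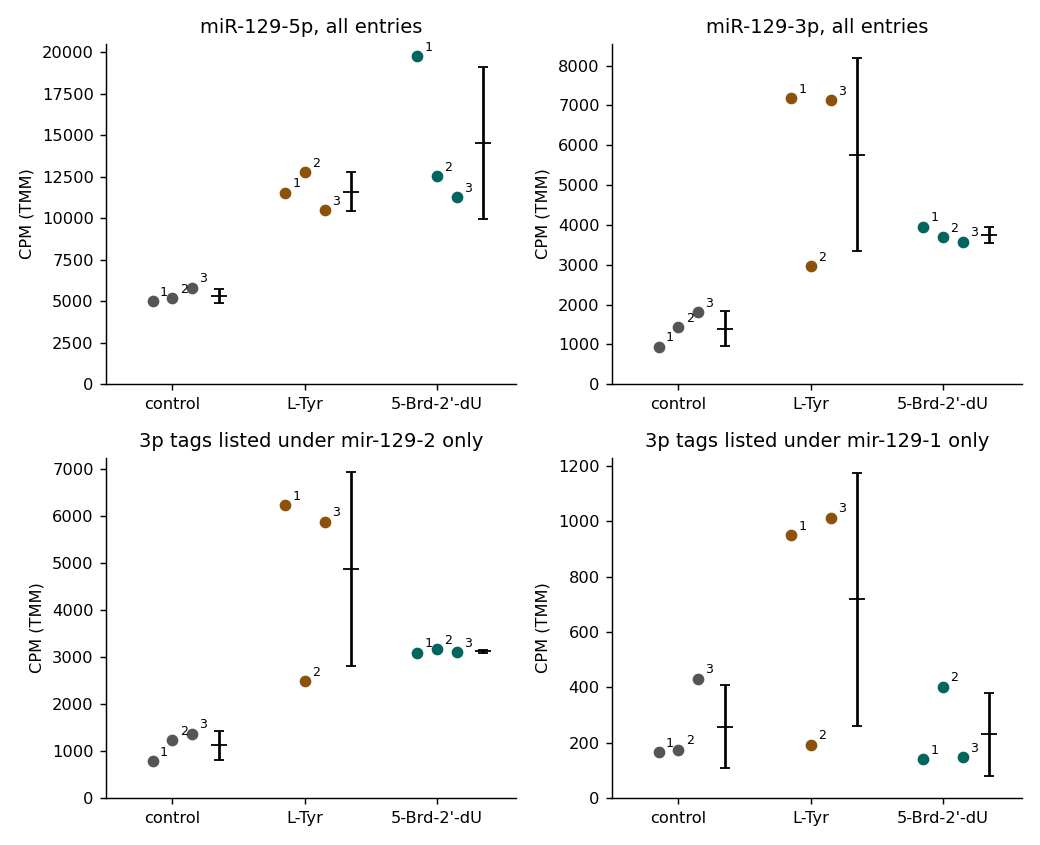
CPM after TMM scaling (vertical axis) of the summed miR-129-5p and miR-129-3p entries and of the 3p tags listed under 1 hairpin only, by group. Points are libraries with their replicate number, and the bars beside them give the group mean ± SD. Both arms are higher in the 6 exposed libraries than in the 3 control libraries, while the mir-129-1 tags overlap between the groups. Of all arm sums tested, 10.6% with L-Tyr and 13.1% with 5-Brd-2′-dU also lie above all control libraries.

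With L-Tyr, edgeR's quasi-likelihood fit of all arm sums put miR-129-5p higher by 1.11 ± 0.18 (SE) on the log2 scale relative to control cells, a 2.16-fold difference, and miR-129-3p by 2.03 ± 0.39, a 4.09-fold difference. The median over the 226 arm sums tested was -0.12, which scaling by total count alone moved to 0.08. In that fit 6 arm sums (2.65%) passed an adjusted p of 0.05, both miR-129 arms among them. This contrast was used to choose miR-129, so the calls are a description. Leaving out replicate 2 of L-Tyr kept both calls, with values of 0.96 for 5p and 2.27 for 3p. Leaving out any other of the 6 libraries lost both calls, with values of 0.97 to 1.10 for 5p and 1.74 to 2.19 for 3p. Replicate 2 of L-Tyr also had the highest summed fibroblast and smooth muscle markers of its group, 7269 CPM against 2191 and 2327 CPM, and a part of those cells in the result was not tested.

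With 5-Brd-2′-dU, the same fit put miR-129-5p higher by 1.49 ± 0.28 (SE) on the log2 scale, a 2.81-fold difference, and miR-129-3p by 1.46 ± 0.31, a 2.74-fold difference, beside a median of -0.10 over 245 arm sums. Both comparisons use the same 3 control libraries. Here 6 arm sums (2.45%) were called, with miR-129-5p among them and miR-129-3p just outside. Without replicate 3 of 5-Brd-2′-dU, the library rich in markers of other cell types, the values were 1.62 for 5p and 1.48 for 3p. The 5p call was lost without replicate 1 of control cells (1.48) or replicate 2 of control cells (1.50), and of these fits only that without replicate 3 of control cells called 3p (1.68). The 5p call was also lost with scaling by total count (1.51) and with a replicate block (1.43). The 3p strand was called with DESeq2's size factors or Wald test, with all 9 libraries, without a filter, at a mean count of at least 50 and with tags of at least 17 nt.

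5-Brd-2′-dU and L-Tyr share no library, and their difference was tested. For miR-129-5p it was 0.34 on the log2 scale (95% interval -0.30 to 0.99), with an adjusted p of 0.729 in edgeR's quasi-likelihood test. For miR-129-3p it was -0.61 (95% interval -1.43 to 0.21), with an adjusted p of 0.575 in the same test. In this comparison 6 of 216 arm sums (2.78%) were called, and neither miR-129 arm was. Neither difference passed the test, and the intervals leave room for a 5p level almost 2-fold higher and a 3p level more than 2-fold lower in 5-Brd-2′-dU. Without replicate 1 of 5-Brd-2′-dU the 5p difference was 0.05, and without replicate 3 it was 0.55; the 3p difference ranged from -0.92 without replicate 2 of L-Tyr to -0.35 without replicate 3 of L-Tyr. None of these fits called either arm of miR-129.

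The ratio of the arms within a library does not depend on library size, but it too describes the short tags of the table. In control cells, 5p made up 84.1%, 78.4% and 76.2% of the miR-129 counts, and with 5-Brd-2′-dU 83.3%, 77.2% and 75.9%. With L-Tyr the shares were 61.7%, 81.2% and 59.6%, with replicate 2 within the range of the other groups and replicates 1 and 3 below it. The mean difference between L-Tyr and control cells was -12.1 percentage points (exact two-sided permutation test, p = 0.3, adjusted 0.563 over 15 comparisons of shares). Between 5-Brd-2′-dU and control cells it was -0.74 points (exact permutation p = 0.7, adjusted 0.75). With 3 libraries against 3, the smallest p this test can give is 0.1.

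The loci were compared on the 3p arm. Tags listed under mir-129-2 only held 6609 counts in 14 sequences with at least 10 counts each, from 14 to 3030 counts, and those under mir-129-1 only held 834 counts in 8 sequences, from 12 to 441 counts. In CPM, the summed mir-129-2 tags stood at 777, 1232 and 1369 in control cells. They stood at 6237, 2492 and 5891 CPM with L-Tyr and at 3094, 3167 and 3109 CPM with 5-Brd-2′-dU. As for the whole arm, all exposed libraries were above the control libraries, beside 10.6% of all arm sums tested with L-Tyr and 13.1% with 5-Brd-2′-dU. The summed mir-129-1 tags stood at 165, 175 and 431 CPM in control cells, at 949, 192 and 1014 CPM with L-Tyr and at 140, 402 and 146 CPM with 5-Brd-2′-dU. Here the groups overlapped, and replicates 1 and 3 of L-Tyr were the only libraries above the highest control library. Counts behind the mir-129-1 values were small, from 24 to 193 per library. Of the 8 mir-129-1 sequences, 2 (17 and 14 counts) occurred in both hairpins and 1 (33 counts) exactly in neither, as did 1 of the 14 mir-129-2 sequences (14 counts). With tags found exactly in 1 hairpin alone, the mir-129-1 level was 165, 175 and 431 CPM in control cells, 732, 150 and 909 CPM with L-Tyr and 140, 389 and 146 CPM with 5-Brd-2′-dU, and the groups overlapped here too.

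The share of mir-129-2 in these 3p counts was 82.4% (95% Wilson interval 76.4 to 87.2, 188 counts), 87.6% (84.8 to 89.9, 627 counts) and 76.1% (71.6 to 80.0, 397 counts) in control cells. With L-Tyr it was 86.8%, 92.8% and 85.3%, and with 5-Brd-2′-dU 95.7%, 88.7% and 95.5%. Every 5-Brd-2′-dU library lay above the control libraries, and the L-Tyr libraries overlapped both groups. In the most abundant pair of tags, described below, the share over summed counts was instead lower with 5-Brd-2′-dU. The group means were 82.0% ± 5.76, 88.3% ± 3.99 and 93.3% ± 3.96 (SD, n = 3 each). The difference between 5-Brd-2′-dU and control cells was 11.3 points (exact permutation p = 0.1, the smallest this design allows, adjusted 0.563). Between L-Tyr and control cells it was 6.29 points (exact permutation p = 0.3, adjusted 0.563), and between 5-Brd-2′-dU and L-Tyr 4.99 points (exact permutation p = 0.2, adjusted 0.563). With tags found exactly in 1 hairpin alone, these differences were 11.4 points (exact permutation p = 0.1), 8.08 points (exact permutation p = 0.2) and 3.30 points (exact permutation p = 0.3). The intervals cover counting error only, and reads multiplied by PCR are not independent molecules.

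**Figure D2:**
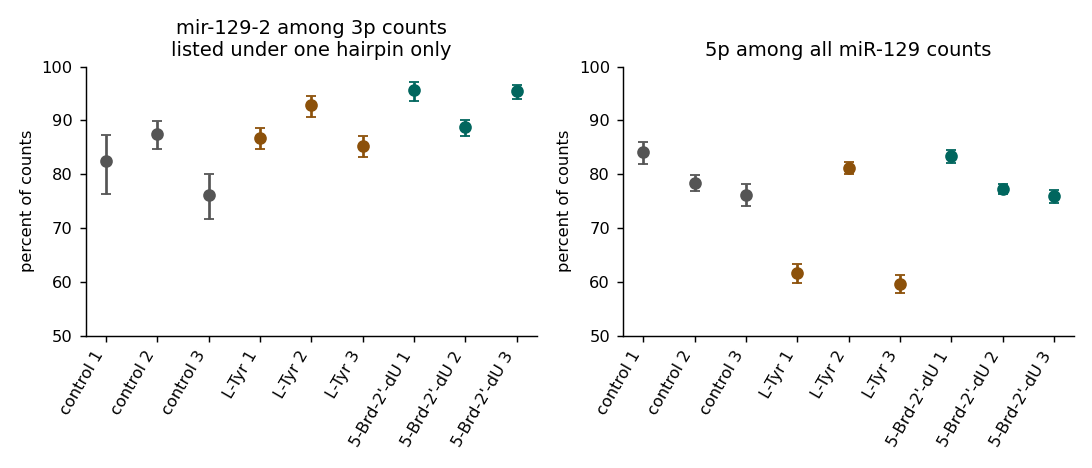
Share of mir-129-2 in the 3p counts listed under 1 hairpin only (left) and share of 5p in all miR-129 counts (right), in percent, for each library. Bars are 95% Wilson intervals; the mir-129-2 share is between 88.7% and 95.7% with 5-Brd-2′-dU and between 76.1% and 87.6% in control cells, and the 5p share is lowest in replicates 1 and 3 of L-Tyr, at 61.7% and 59.6%.

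The paired tags gave different ratios of the loci. For the C20T pair from base 1, 3030 counts carried the mir-129-2 base and 235 the mir-129-1 base, so that mir-129-2 held 92.8% (95% Wilson interval 91.9 to 93.6). For the C18T pair from base 3 the counts were 1497 and 441, or 77.2% (75.3 to 79.1). The difference between groups also depended on the pair. From base 1, control cells held 453 mir-129-2 and 13 mir-129-1 counts, and 5-Brd-2′-dU held 1220 and 86, a lower mir-129-2 share. From base 3, control cells held 223 and 164, and 5-Brd-2′-dU held 661 and 102, a higher share. The intervals pool the reads of all 9 libraries and cover counting error only, not the spread between libraries. Within single libraries the pairs also disagreed. In replicate 1 of L-Tyr the pair from base 1 held 109 mir-129-1 counts beside 553 of mir-129-2, while the pair from base 3 held 0 beside 78. In replicate 3 of control cells it was the reverse, with 1 beside 157 from base 1 and 83 beside 42 from base 3. Of the 8 mir-129-1 sequences 7 were at 0 in at least 1 library. Of the 14 mir-129-2 sequences 9 were at 0 in at least 1 library.

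Sequences listed under both hairpins had their counts divided between them. Of 23623 counts in such 5p sequences, 49.8% stood under mir-129-1 (95% Wilson interval 49.1 to 50.4), and in each of the 9 libraries the share lay between 48.3% and 51.7%, with an interval that held 50%. The 5p counts under each hairpin are therefore no measure of that locus.

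Most 5p tags did not begin at the first base of the mature strand. The 5 most abundant, which held 88.6% of the 5p counts, formed a ladder of starts that ended at base 20 or 21. They are shown with their own bases 2 to 8 in capitals, since a strand with such a start would have another seed. Whether these starts are ends of strands in the cells or of shortened reads was not tested.
5p tag from base 1: cTTTTTGCggtctgggcttg
5p tag from base 2: tTTTTGCGgtctgggcttgc
5p tag from base 3: tTTTGCGGtctgggcttgc
5p tag from base 4: tTTGCGGTctgggcttgc
5p tag from base 6: tGCGGTCTgggcttgc
Over all 5p tags, 33.1% of the counts began at base 1, 30.1% at base 2, 16.6% at base 3, 9.77% at base 4, 4.01% at base 5 and 6.36% at base 6. At the other end, 62.9% stopped at base 21, the last of the mature sequence, and 32.0% at base 20. These ends are bounded by the tag length, since a tag of at most 20 nt from base 1 cannot reach base 21. On the 3p arm, 46.9% began at base 1 and 28.0% at base 3. Other miRNAs of the table also had such starts. Among 97 arm sums with at least 1000 counts and a RefSeq mature sequence, the share beginning at base 1, judged on the first 12 bases, had a median of 25.1% (from 0% to 86.9%), and 37 lay above miR-129-5p and 24 above miR-129-3p.

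All 6 starts were present in every library. The share of counts that began at base 2 was 25.4%, 25.3% and 26.8% in control cells. It was 21.9%, 32.1% and 42.7% with L-Tyr and 32.0%, 30.2% and 28.7% with 5-Brd-2′-dU. All 5-Brd-2′-dU libraries lay above the control libraries, and this difference was not tested. Base 2 was picked from the 6 starts after its values were seen. On the 3p arm, the share from base 1 was likewise higher in all 5-Brd-2′-dU libraries than in control cells. The tag from base 1 had 271, 860 and 313 counts in control cells, 604, 818 and 324 with L-Tyr and 1113, 1762 and 1044 with 5-Brd-2′-dU, or 27.2%, 37.3% and 24.4%, then 34.5%, 24.6% and 16.2%, then 33.0%, 30.4% and 32.2% of the 5p counts. Its mean level was 1568 ± 314 CPM in control cells, 2942 ± 1153 CPM with L-Tyr and 4651 ± 1612 CPM with 5-Brd-2′-dU. The tag from base 2 had means of 1302 ± 150, 3547 ± 1089 and 4266 ± 1490 CPM in the same groups. The tag from base 3 followed with 825 ± 229, 1764 ± 248 and 2232 ± 481 CPM, and the tag from base 4 with 556 ± 185, 1225 ± 82.1 and 1080 ± 378 CPM (SD, n = 3 each). The 16-nt tag from base 6 had 357 ± 271, 523 ± 378 and 935 ± 195 CPM. All 5 had higher means in both exposed groups than in control cells. Because these tags hold 88.6% of the 5p counts, this repeats the arm sum and is no support for it.

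The share of 20-nt tags in the 5p counts was 54.4% ± 6.40 in control cells, 56.5% ± 1.80 with L-Tyr and 61.4% ± 1.88 with 5-Brd-2′-dU (SD, n = 3 each). The lowest 5-Brd-2′-dU library, at 59.9%, was above the highest L-Tyr library, at 58.5%, but control cells spanned 49.8% to 61.7%. The difference between 5-Brd-2′-dU and L-Tyr was 4.96 points (exact permutation p = 0.1, adjusted 0.563). For the share of the most abundant 5p tag, the exact permutation p lay between 0.4 and 0.6 in the 3 comparisons. For the most abundant 3p tag it lay between 0.3 and 0.9, and this tag held 30.8%, 37.4% and 39.3% of the 3p counts in control cells, 50.7%, 51.6% and 29.9% with L-Tyr and 20.3%, 38.0% and 42.2% with 5-Brd-2′-dU. No share passed the adjustment, and none could, since the smallest exact permutation p of 3 libraries against 3 is 0.1.

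**Figure D3:**
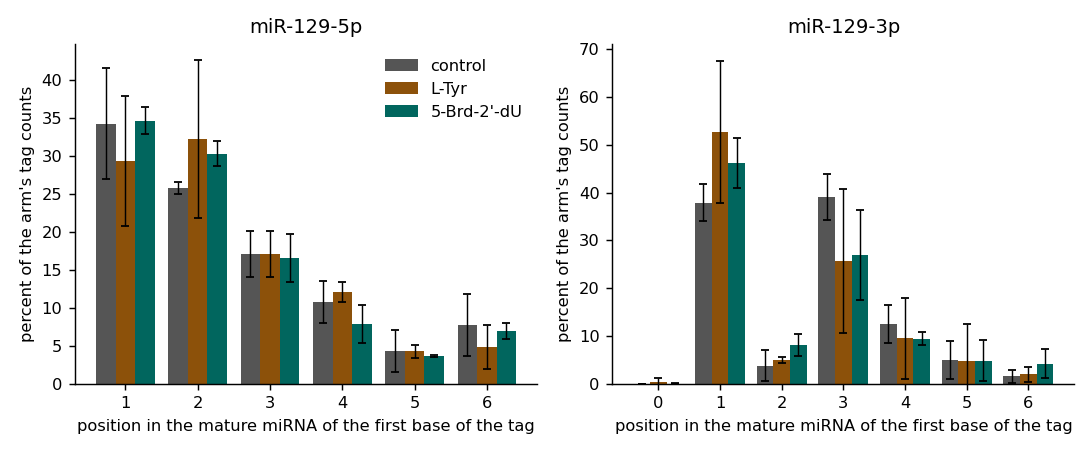
Percent of the tag counts of the 5p arm (left) and the 3p arm (right) by the position in the mature strand at which the tag begins. Bars are group means over 3 libraries and lines ± SD; 33.1% of all 5p counts begin at base 1 and 30.1% at base 2, and on the 3p arm 46.9% begin at base 1.

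Singly, the entries had less precision than the sums. Of the 34 entries of the 5p arm, 16 passed the filter on low counts for L-Tyr against controls, with log2 fold changes from 0.48 to 1.51. Of the 33 entries of the 3p arm 7 passed it, from 0.29 to 2.57. In 5-Brd-2′-dU relative to control cells, 17 entries of 5p ranged from -0.28 to 2.22 and 10 of 3p from -1.21 to 5.24. The entry at -1.21 was the mir-129-1 tag from base 3, with 22, 59 and 83 counts in control cells and 0, 92 and 10 with 5-Brd-2′-dU, and it was chosen after its values were seen. With L-Tyr this tag had 0, 24 and 151 counts, so its groups overlapped throughout. Over all entries, edgeR's quasi-likelihood test called 1 of 1256 (0.0796%) for L-Tyr relative to control cells. For 5-Brd-2′-dU relative to control cells it called 0 of 1488 (0.0%), and no call was from miR-129. At an unadjusted p under 0.05 there were 121 and 156. DESeq2, run without that filter on 3829 and 4269 entries, called 48 and 37, and whether miR-129 was among them is not given here. Between 5-Brd-2′-dU and L-Tyr, edgeR's test called 2 of 1234 (0.162%), again none from miR-129. The groups did not overlap, with the exposed libraries higher, in 12 of the 23 miR-129 entries that passed with L-Tyr, where 6.85% of all entries did so, and in 16 of 27 with 5-Brd-2′-dU, where 9.54% did so; the choice of miR-129 rested on these contrasts. Most 5p entries that passed held a sequence listed under both hairpins, with its counts divided between them. Such a sequence can enter these tallies under each hairpin, so the entries are not independent of each other. Many entries reached the filter through the exposed groups, where they were higher, so the sign of those that passed is no support for the sums.

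**Figure D4:**
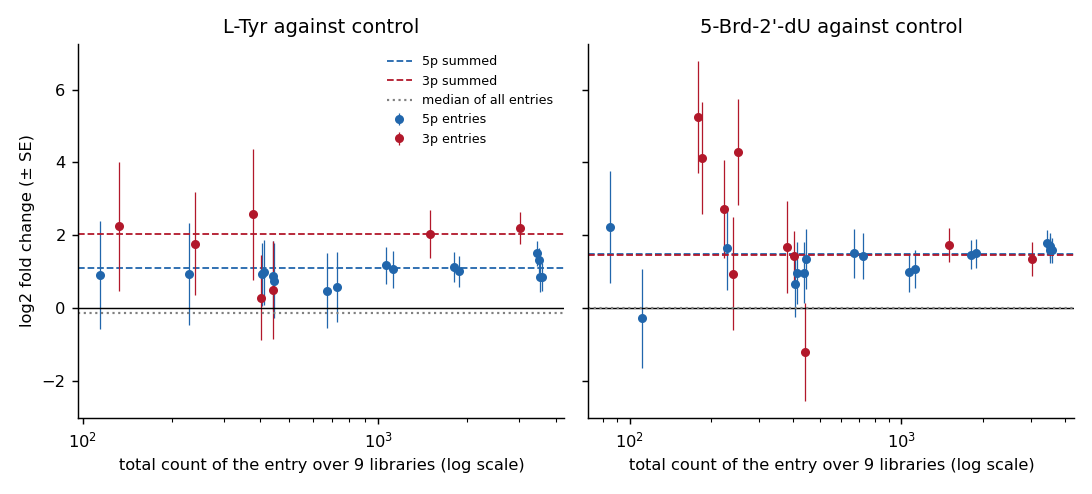
Log2 fold change ± SE (vertical axis) of each miR-129 entry that passed the filter, against its total count over 9 libraries on a log scale, for L-Tyr (left) and 5-Brd-2′-dU (right) relative to control cells. Dashed lines mark the summed arms (1.11 and 2.03 with L-Tyr, 1.49 and 1.46 with 5-Brd-2′-dU) and the dotted line the median of all entries; entries with few counts scatter most, and a mir-129-1 tag stands lowest on the right at -1.21.

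The arm sums most like miR-129 were sought over the 9 libraries, among 198 others with a mean of at least 100 CPM, by Pearson's r of log2 CPM. For miR-129-5p they were miR-99b-5p (r = 0.90), the predicted novelMiR-467 (0.87), miR-22-3p (0.86), miR-191-5p (0.81) and miR-203-3p (0.80). For miR-129-3p they were miR-328-3p (0.86), miR-652-3p (0.84), miR-99b-5p (0.81), let-7d-3p (0.81) and miR-674-3p (0.78). The arms of miR-129 correlated with each other at 0.76, and each was seventh in the other's order. All points share the 9 libraries and their scaling. After each library was set relative to its group mean, r with miR-129-5p was 0.53 for miR-99b-5p, 0.12 for novelMiR-467, 0.20 for miR-22-3p, -0.65 for miR-191-5p and 0.60 for miR-203-3p, and between the arms of miR-129 it was -0.03. For the 3p list it ranged from 0.59 for miR-328-3p to 0.81 for miR-99b-5p. miR-99b-5p, which is encoded in a cluster with let-7e and miR-125a, stood at 33045 ± 6875 CPM in control cells, 51882 ± 9438 CPM with L-Tyr and 68122 ± 14527 CPM with 5-Brd-2′-dU (SD, n = 3 each).

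Other miRNAs known from brain were set beside miR-129. Of 32 arm sums from 16 such miRNAs, 17 had a count, and miR-124-3p, a defining miRNA of neurons, was at 0. In L-Tyr relative to control cells 12 were tested and 0 called in edgeR's fit, where 2.65% of all arm sums were (5 above 0 and 7 below, median -0.18 against -0.12 over all). In 5-Brd-2′-dU 11 were tested and 0 called, where 2.45% of all were (1 above 0 and 10 below, median -0.58 against -0.10 over all). miR-9-5p, which acts in neural progenitors, stood at 3830 ± 542, 3056 ± 1457 and 2070 ± 381 CPM in the groups in the order control, L-Tyr, 5-Brd-2′-dU, and miR-128-3p at 5306 ± 1240, 3254 ± 1150 and 2585 ± 1205 CPM. The summed neural markers, from miR-9-5p alone, lay between 3467 and 4452 CPM in control cells, 1660 and 4568 CPM with L-Tyr and 1649 and 2393 CPM with 5-Brd-2′-dU.

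Within 2000000 bp of either locus, 6 named miRNA genes were annotated in mm9: Mir670 at 19847 bp from Mir129-2, and Mir592, Mir182, Mir96, Mir183 and Mir335 between 1085869 and 1718608 bp from Mir129-1. Both arms of miR-670, the nearest, were at 0 in all libraries. miR-183-5p, of a cluster known from sensory organs, stood at 7782 ± 2461 CPM in control cells, 5740 ± 1988 CPM with L-Tyr and 6945 ± 2972 CPM with 5-Brd-2′-dU. miR-335-5p, which lies in an intron of the imprinted gene Mest, stood at 476 ± 84.8, 189 ± 227 and 3533 ± 596 CPM. It was the only arm sum of this list called in an exposure against control cells, in 5-Brd-2′-dU (log2 fold change 2.91 ± 0.29 SE, adjusted p = 0.00305 in edgeR's test; 1 of 6 tested, beside 2.45% of all arm sums), and with L-Tyr 0 of 5 were called, beside 2.65% of all.

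The study placed 7 arms in co-expression groups with miR-129, a list chosen on these same libraries and so no independent evidence. It named miR-99b-5p and miR-30d-5p for both exposures, and miR-149-5p and miR-211-3p for L-Tyr only. For 5-Brd-2′-dU only, it named miR-21a-5p, miR-335-3p and miR-378a-3p (written there as miR-378-3p). All 7 are tallied here in each exposure, including those that the study did not name for it. With L-Tyr 5 of the 7 were above 0 and 1 was called, miR-30d-5p (0.95 ± 0.15 SE, adjusted p = 0.0125 in edgeR's test), where 2.65% of all arm sums were called. With 5-Brd-2′-dU 4 were above 0 and 0 were called, beside 2.45% of all. The largest difference there was that of miR-335-3p (4.40 ± 1.13 SE, adjusted p = 0.0855), followed by miR-21a-5p (2.31 ± 0.47 SE, adjusted p = 0.0506). miR-211-3p, from the melanocyte gene Trpm1, was at 1219 ± 319 CPM in control cells, 2324 ± 147 CPM with L-Tyr and 333 ± 81.1 CPM with 5-Brd-2′-dU. Between the exposures, miR-211-3p was lower in 5-Brd-2′-dU (-2.79 ± 0.38 SE, adjusted p = 0.0093) and miR-335-3p and miR-21a-5p were higher (4.41 ± 0.67 SE and 1.78 ± 0.28 SE, adjusted p = 0.0125 each), where 2.78% of all arm sums were called, while neither arm of miR-129 passed the test.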

How the data were processed

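Small RNA libraries of 9 B16F1 cultures were analysed. The authors used the BaseSpace Small RNA app and describe aligning reads of 17 to 35 nt against mm9 and miRBase 21. They deposited raw counts per listed entry. The tags listed measured 13 to 20 nt, which differs from that range, and the reason is not known. The authors' normalized counts and comparison tables, which hold DESeq2 fold changes and p-values, were not used. Groups followed the sample labels, which name no batch. miR-129 and the lists were chosen with earlier results of these data known.

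Counts were summed per miRNA name and arm over the whole table. Each comparison used its 6 libraries with edgeR 4.0.16 (R 4.3.3): TMM, filterByExpr, the quasi-likelihood F test and Benjamini-Hochberg adjustment over all arm sums, or over all entries. An arm sum or entry was called at an adjusted p under 0.05. The SE is the log2 fold change divided by the square root of F. Shares were compared by exact two-sided permutation tests, adjusted over 15 comparisons (Python 3.11.15, scipy 1.17.1, pandas 2.3.3). The fit was tested on simulated data with known changes. No library duplicated another, and p-values measure the spread between these cultures.

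Named were both arms and both loci, the 5 tags per arm with the highest counts, tags of 1 hairpin with at least 10 counts (most as ranges), the 5 arm sums most correlated with each arm (mean of at least 100 CPM, prior count 2), brain miRNAs, miRNAs within 2000000 bp, partners named by the study, and markers of other cell types. Alternatives were DESeq2 1.42.0 (size factors, Wald test), total-count scaling, TMM without the most abundant entry, a mean count of at least 50, no filter, all 9 libraries in one fit, a replicate block, tags of at least 17 nt, each sequence counted once, tags exact in one hairpin only, and leaving out each library. Loci came from GENCODE on mm9 and sequences from RefSeq (GRCm38.p6).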

Additional observations from a re-analysis of the deposited data

How the results depend on the processing

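The direction of both miR-129 arm sums was the same under all 16 alternatives of each comparison. In L-Tyr relative to control cells, miR-129-5p moved by more than the spread between replicates with total-count scaling (1.30) and between 0.96 and 1.10 on leaving out 1 library, where the lowest values were those without replicate 2 of L-Tyr and replicate 1 of control cells. The difference in the 5p share between 5-Brd-2′-dU and control cells turned positive with each sequence counted once (0.0599 points) and ranged from -2.99 to 1.54 points on leaving out 1 library. On leaving out 1 library the difference in the most abundant tag ranged from -0.42 to 6.02 points for 5p and from -6.71 to 4.26 points for 3p in the same comparison, and that in 20-nt tags between L-Tyr and control cells from -0.25 to 5.72 points. The cause of these changes was not tested.

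Counts of calls depended on the setting. Fits without a filter, and DESeq2's Wald test, also took in more arm sums and entries. For 5-Brd-2′-dU against control cells these were 599 arm sums, where the filtered fit tested 245. For arm sums of L-Tyr against control cells, 6 became 14 without a filter, 10 with a replicate block, 17 with the DESeq2 Wald test and 1 to 18 on leaving out 1 library. For 5-Brd-2′-dU against control cells, 6 became 3 with total-count scaling, 44 without a filter, 11 at a mean count of at least 50, 18 with all 9 libraries, 2 with the block, 20 with DESeq2 and 1 to 12 on leaving out 1 library. For 5-Brd-2′-dU against L-Tyr, 6 became 26 without a filter, 3 with all 9 libraries, 3 with the block, 13 with DESeq2 and 0 to 5 on leaving out 1 library. For single entries, 1 call for L-Tyr became 6 with total-count scaling, 0 without the most abundant entry, 11 without a filter, 8 at a mean count of at least 50, 0 with the block, 48 with DESeq2 and 1 to 2 on leaving out 1 library. The 0 calls for 5-Brd-2′-dU became 85 without a filter, 3 with all 9 libraries, 1 with the block, 37 with DESeq2 and 0 to 14 on leaving out 1 library. The 2 calls between the exposures became 47 without a filter, 1 with all 9 libraries, 41 with DESeq2 and 0 to 3 on leaving out 1 library.

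No pairing of the libraries by replicate number was seen, and whether same-numbered cultures were handled together is not known. Deviations from the group means of same-numbered libraries correlated between -0.11 and 0.03, and with the replicate block the miR-129 log2 fold changes were 1.11 (5p) and 1.97 (3p) with L-Tyr, 1.43 and 1.50 with 5-Brd-2′-dU, and 0.29 and -0.51 between the exposures. The block and total-count scaling each ended the call of miR-129-5p in 5-Brd-2′-dU. With 3 libraries a group no share test can give a p under 0.1, and mir-129-1 rested on 24 to 193 counts per library.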

Other observations

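miR-129-5p was also measured by stem-loop RT-qPCR, whose values were not analysed here, and the oligos can be set beside the tags. The capitals mark the 3′ bases of the forward primer found in the mature sequence and the 3′ bases of the stem-loop primer that are complementary to its 3′ end.
forward primer: cggccTTTTGCGGTCTGG
stem-loop primer: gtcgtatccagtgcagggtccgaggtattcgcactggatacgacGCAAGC
The last 13 bases of the forward primer were found in the mature sequence, whose run of 5 T stood against a run of 4 T in the primer. The last 6 bases of the stem-loop primer were complementary to the 3′ end of the mature strand. Tags that stopped at that end held 61.1% ± 8.01 of the 5p counts in control cells, 65.1% ± 10.6 with L-Tyr and 62.6% ± 2.12 with 5-Brd-2′-dU (SD, n = 3 each), and a tag from base 1 could not be among them, since no tag exceeded 20 nt.

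Over all 3p tags, those beginning at base 1 of the mature strand stood at 539 ± 209 CPM in control cells, 2910 ± 1308 CPM with L-Tyr and 1726 ± 121 CPM with 5-Brd-2′-dU, and those beginning at base 3 at 550 ± 214, 1519 ± 1284 and 1020 ± 413 CPM (SD, n = 3 each).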
